A study of Homo sapiens with 15 samples.

Results

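Of the 55773 gene names in a deposited table of ribosome footprints from human HEK293 cells, 35 are genes of the MAGE family. They were taken as every name that starts with MAGE, a letter from A to L and a number, with or without a final B. Among them, 26 belong to groups A to C (13 in group A, 10 in group B and 3 in group C) and 9 to groups D to L (4 in D, 2 in E and 1 each in F, H and L). MAGEA5 was kept, since its name follows the rule, although GENCODE annotates it as a pseudogene.

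MAGE proteins share a conserved domain through which many of them bind RING-type ubiquitin ligases and alter what these ligases act on. Groups A to C are cancer-testis genes on the X chromosome: they are normally read in male germ cells, are silenced in most other adult tissues, in part through DNA methylation of their promoters, and are switched on again in many tumours. Groups D to L are expressed in many tissues, and several of them act in the nervous system, in hormone signalling or in genome maintenance.

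Each of 5 groups held 3 libraries. Cells labelled ZC3H7A/B-DD were HEK293 cells with a ZC3H7A knockout and a short hairpin against ZC3H7B, and Parental cells were wild type with a control hairpin. Both were selected with puromycin at 5 µg/mL, released from it before collection, frozen as pellets and lysed with cycloheximide at 100 µg/mL. In the second set, inducible HEK293 lines of the Flp-In T-REx system carried Flag/HA-ZC3H7A, Flag/HA-ZC3H7B or, as the control, the Flag/HA tag without either protein, all from a doxycycline-driven construct and all given 1 µg/mL of doxycycline for 24 h. ZC3H7A and ZC3H7B are related zinc finger proteins. The sets differ in lysis buffer, library kit and laboratory, so levels are set side by side across them but not compared. For the Flag/HA lines the labels speak of independent replicates; nothing says that the other 6 libraries came from separate cultures, so p-values there measure only how much these libraries spread, which may reflect technical variation.

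Libraries held 20777204 to 42680589 assigned reads with ZC3H7A/B-DD labels, 32955833 to 39064072 in Parental cells, 24703005 to 25922138 with ZC3H7A, 22661812 to 25939425 with ZC3H7B and 28261810 to 29515572 in the Flag/HA control. ZC3H7A footprints averaged 38044 ± 562 in the ZC3H7A line and 6547 ± 52.6 in the control, and ZC3H7B footprints 27885 ± 927 in the ZC3H7B line and 2152 ± 71.8 in the control (SD, n = 3 each). In the libraries labelled ZC3H7A/B-DD the targets were not lower: ZC3H7A stood at 7116, 1890.3 and 5066, against 1885, 1820 and 2311 in Parental cells (limma adjusted p = 0.085), and ZC3H7B at 3948, 2399 and 2969, against 2479, 2321 and 2609 in Parental cells (limma adjusted p = 0.198). These values do not show the depletion that the label names, so every direction given below for these libraries is tied to the label only. Parental replicate 3 stood apart: without it 5631 genes passed the test between these groups, against 4182 with it. HEK293 marker genes were detected in every group (8 of 8), while the 6 testis germ cell markers summed to at most 38.0 in any library, with PRM1 at 0 throughout.

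The results turn on 3 X-linked genes, MAGEC1, MAGEC2 and MAGEE1. MAGEC1 lies at chrX:141903894-141909388 on the plus strand and MAGEC2 at chrX:142202345-142205290 on the minus strand, both from GENCODE release 29 (GRCh38), and they are next to each other among the RefSeq protein-coding genes in the table. MAGEE1 lies at chrX:76427724-76431353 on the plus strand. Their promoters are printed because all 3 genes were higher with ZC3H7A and because cancer-testis promoters are known to be controlled at their CG sites. Each runs 5′ to 3′ over 300 bases, 250 before and 50 after the RefSeq start on GRCh38.p14, with every CG in capitals: chrX:141903644-141903943 for MAGEC1 (plus strand), chrX:142205241-142205540 for MAGEC2 (minus strand) and chrX:76427460-76427759 for MAGEE1 (plus strand).
MAGEC1 promoter: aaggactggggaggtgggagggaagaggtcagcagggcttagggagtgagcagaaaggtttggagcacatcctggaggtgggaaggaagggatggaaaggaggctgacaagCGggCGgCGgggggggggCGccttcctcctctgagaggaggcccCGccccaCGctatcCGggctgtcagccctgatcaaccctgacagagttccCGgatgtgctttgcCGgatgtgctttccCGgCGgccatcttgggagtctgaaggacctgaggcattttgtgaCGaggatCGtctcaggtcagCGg
MAGEC2 promoter: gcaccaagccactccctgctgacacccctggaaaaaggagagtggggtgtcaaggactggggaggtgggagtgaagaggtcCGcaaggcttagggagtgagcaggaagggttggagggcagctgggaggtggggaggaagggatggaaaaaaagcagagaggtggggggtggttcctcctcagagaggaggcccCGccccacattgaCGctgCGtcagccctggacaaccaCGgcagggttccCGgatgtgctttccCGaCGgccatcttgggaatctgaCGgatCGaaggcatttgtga
MAGEE1 promoter: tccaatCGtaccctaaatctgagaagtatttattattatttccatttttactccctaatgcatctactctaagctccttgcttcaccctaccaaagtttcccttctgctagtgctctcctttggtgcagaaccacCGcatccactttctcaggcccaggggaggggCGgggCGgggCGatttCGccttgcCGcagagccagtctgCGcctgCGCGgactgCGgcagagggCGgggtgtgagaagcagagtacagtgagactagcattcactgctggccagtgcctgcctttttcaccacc
The windows hold 14, 10 and 12 CG sites, in the order printed. Among 35116 RefSeq promoters of this length the median was 14, and 50.3%, 56.4% and 53.1% held at least as many CG sites as MAGEC1, MAGEC2 and MAGEE1. The letters CCGGAA, part of the site that many ETS-family factors bind, were searched on both strands: none of the 3 windows held them, against 17.2% of all promoters. The near sequence CCGGAT, which the printed MAGEC1 and MAGEC2 windows hold, was not searched. The search therefore cannot show whether these windows lack such a site. Of the members, 30 matched 41 RefSeq promoters, with a median of 12.5 CG sites in groups A to C and 12.0 in groups D to L.

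The start of the coding sequence is given for the same genes and for MAGEF1, which has the fewest codons ending in A or T of the 7 genes tested. Each line holds the first 25 codons, 5′ to 3′, from GENCODE release 29, with a capital for every A or T at the last base of a codon.
MAGEC1 coding start: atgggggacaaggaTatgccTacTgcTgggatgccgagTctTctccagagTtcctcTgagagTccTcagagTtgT
MAGEC2 coding start: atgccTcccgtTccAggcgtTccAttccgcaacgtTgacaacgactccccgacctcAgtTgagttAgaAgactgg
MAGEE1 coding start: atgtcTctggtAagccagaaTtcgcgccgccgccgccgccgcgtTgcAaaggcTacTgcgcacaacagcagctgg
MAGEF1 coding start: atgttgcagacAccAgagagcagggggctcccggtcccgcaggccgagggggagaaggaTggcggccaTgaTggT
Over the whole coding sequence, codons ending in A or T made up 46.7% in MAGEC1, 44.4% in MAGEC2, 37.7% in MAGEE1 and 28.4% in MAGEF1. The others stood at 47.3% (MAGEB6), 44.8% (MAGED1) and 42.5% (MAGED2). The median over 19501 coding genes was 39.4%, with quartiles of 26.4% and 53.9%, so all 7 genes lay between these quartiles.

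Values are normalized counts, that is reads divided by a size factor per library, and 1 read was worth 0.778 to 1.58 of them. Differences were tested on log2(value + 1) with limma, for genes that reached 10 in 3 or more libraries of a fit, and called at a Benjamini-Hochberg adjusted p under 0.05 over all genes tested. The comparisons of ZC3H7A and of ZC3H7B with the control share the 3 control libraries. Footprint counts do not separate more mRNA from more ribosomes per mRNA, and in bulk libraries more cells with a footprint and more footprints per cell cannot be told apart.

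In 6 members no read was assigned in any library: MAGEA2, MAGEA2B, MAGEA9, MAGEA9B, MAGED4 and MAGED4B. These are the 3 pairs with identical coding sequence, of 942, 945 and 2271 bases, so each of their 28-base windows also lies in another gene. A footprint from them has more than 1 position, and how such reads were treated is not given in the sources used here; a 0 in the table is no measure of their translation. MAGEA3 and MAGEA6, which share 59.5% of their windows with each other, had 65.4% and 68.0% of windows in some other gene, and their few reads are uncertain for the same reason. Among the tested genes the shared portion was 24.7% in MAGEB6, all of it with MAGEB6B, 5.86% in MAGEC2, 2.56% in MAGEC1, 1.45% in MAGED2, 0.646% in MAGED1 and 0 in MAGEE1 and MAGEF1.

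**Figure D1:**
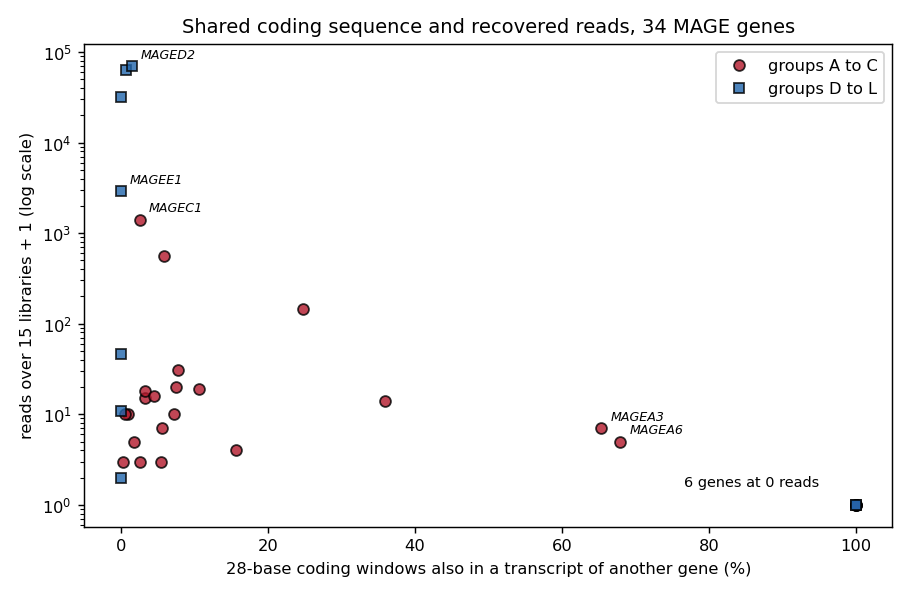
Each point is 1 of the 34 MAGE genes with an annotated coding sequence; the x axis gives the percentage of its 28-base coding windows that also occur in a transcript of another gene, the y axis its reads summed over 15 libraries plus 1, on a log scale. The 6 genes at 100% sit at 0 reads, and the genes with the most reads share under 2% of their windows.

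A further 22 members had reads but did not reach the filter. Of the untested members, those of groups A to C reached at most 9.45, in MAGEB18 with ZC3H7A/B-DD replicate 2. Over the 9 Flag/HA libraries 11 untested members held 50 reads in all, and over the other 6 libraries 21 held 189. The highest value of an untested member was that of MAGEH1, of group H. MAGEH1 stood at 1.56, 4.73 and 2.10 in libraries labelled ZC3H7A/B-DD, against 7.28, 9.56 and 11.2 in Parental libraries. The groups do not overlap, as for 40.8% of all genes tested in this comparison; 7 reads with the label faced 31 in Parental, a ratio of 0.265 at equal depth with an exact 95% counting interval of 0.0984 to 0.613. MAGEA10 stood at 5.36, 1.40 and 9.13 with ZC3H7A, at 0 in all 3 libraries with ZC3H7B and at 0, 3.59 and 0 in the control. Such intervals and floors reflect counting error alone, with pooled reads taken as independent, and leave out the spread between libraries. The labels name no molecular identifiers, so duplicate reads could not be set aside.

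The same 7 members passed the filter in both sets: MAGEB6, MAGEC1 and MAGEC2 of groups A to C, and MAGED1, MAGED2, MAGEE1 and MAGEF1 of groups D to L. MAGEC1 passed in the Flag/HA set only through its 3 ZC3H7A libraries, and MAGEC2 only through its 3 ZC3H7A and 3 ZC3H7B libraries. In the other set MAGEB6 passed only through the 3 libraries labelled ZC3H7A/B-DD. These genes had to differ there, and the counts below describe the tested members without supporting a direction of the family.

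**Figure D2:**
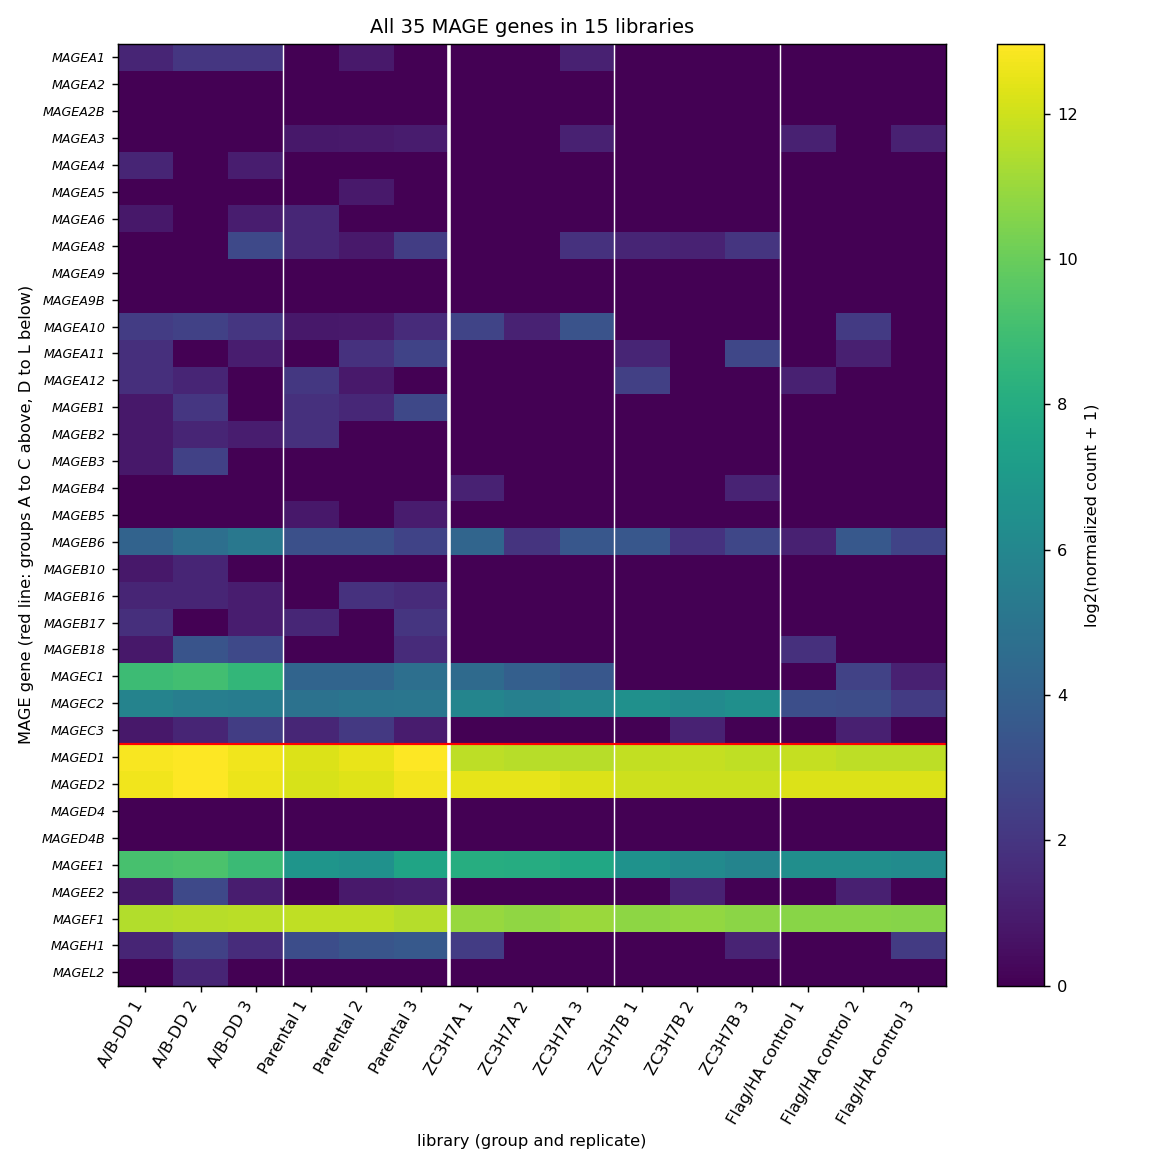
Rows are the 35 MAGE genes and columns the 15 libraries, by group and replicate; colour gives log2(normalized count + 1). Above the red line (groups A to C) only MAGEB6, MAGEC1 and MAGEC2 stand out from values under 10; below it MAGED1, MAGED2, MAGEE1 and MAGEF1 carry nearly all of the footprints.

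Summed over all members, MAGE groups A to C and D to L differ far more in level than the conditions do. Groups D to L took 538 ± 47.9 RPM (reads scaled to the assigned reads of the library) in libraries labelled ZC3H7A/B-DD, 469 ± 59.0 in Parental, 316 ± 12.2 with ZC3H7A, 269 ± 1.74 with ZC3H7B and 282 ± 3.50 in the control (SD, n = 3 each). Groups A to C took 17.0 ± 1.92 with ZC3H7A/B-DD labels, 2.41 ± 0.256 in Parental, 2.65 ± 0.612 with ZC3H7A, 2.81 ± 0.498 with ZC3H7B and 0.505 ± 0.269 in the control. For groups A to C every library of a ZC3H7A, ZC3H7B or ZC3H7A/B-DD group lay above every library of its own control, but 1 or 2 genes carried these sums. MAGEC1 held 1301 of the 1587 reads of groups A to C with the ZC3H7A/B-DD label, and MAGEC2 held 172 of 199 with ZC3H7B and 128 of 202 with ZC3H7A. Without MAGEC2 the remaining 25 genes held 27 reads with ZC3H7B and 29 in the control, and without MAGEC1 and MAGEC2 the remaining 24 took 0.520 ± 0.346 RPM with ZC3H7A, 0.388 ± 0.204 with ZC3H7B and 0.275 ± 0.172 in the control, with libraries that overlap. With the label these 24 genes took 1.64 ± 0.457 RPM, against 0.834 ± 0.122 in Parental, and 71 of their 147 reads with the label were of MAGEB6. For groups D to L the ZC3H7A libraries lay above the control, the ZC3H7B libraries below it, and libraries labelled ZC3H7A/B-DD overlapped with Parental.

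**Figure D3:**
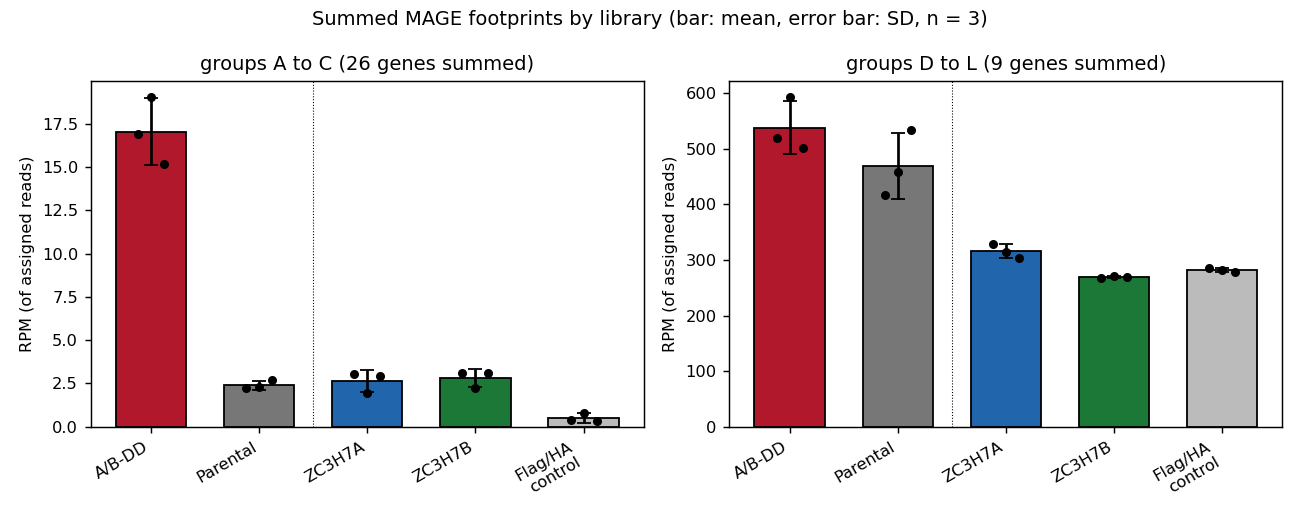
Bars give the mean and SD of summed RPM (3 libraries a group, dots) for the 26 genes of groups A to C on the left and the 9 of groups D to L on the right. The highest library has 19.0 RPM on the left and 592 RPM on the right, both with the ZC3H7A/B-DD label.

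MAGEC2, of group C, forms a ligase with TRIM28 and is read in testis, melanoma and other tumours. It was higher in both overexpressing lines than in the control, and its libraries do not overlap with the control in either, as was the case for 63.9% of all genes with ZC3H7A and 61.1% with ZC3H7B. It stood at 58.9, 48.9 and 63.9 with ZC3H7A, at 89.7, 72.4 and 86.5 with ZC3H7B and at 7.60, 7.18 and 3.77 in the control. The log2 change was 3.06 ± 0.29 (SE) with ZC3H7A (limma adjusted p = 4.17e-09) and 3.59 ± 0.29 with ZC3H7B (adjusted p = 3.25e-10), a ratio of means of 9.26 and 13.4. No control library reached 10, so MAGEC2 entered the fit only through the overexpressing lines. These p-values are therefore no independent support. The direct comparison of ZC3H7A with ZC3H7B gave -0.53 (95% interval -1.13 to 0.07, limma adjusted p = 0.166), although the 3 ZC3H7A libraries all lay below the 3 with ZC3H7B, a separation that 43.7% of all genes showed in 1 direction or the other. In reads, 128 with ZC3H7A and 172 with ZC3H7B faced 15 in the control; the ratio at equal depth had a counting interval of 5.41 to 17.0 with ZC3H7A and of 7.85 to 24.3 with ZC3H7B. Germ cell markers summed to 8.03 to 22.2 with ZC3H7A, to 33.5 to 38.0 with ZC3H7B and to 10.1 to 19.1 in the control, most of it from SYCP3; their part in the result was not tested.

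With the ZC3H7A/B-DD label, MAGEC2 stood at 54.4, 45.7 and 41.9, against 28.3, 32.1 and 32.5 in Parental. These groups do not overlap either, as for 40.8% of all genes tested in this comparison. The log2 change of 0.59 (95% interval 0.10 to 1.08) did not pass over all genes (limma adjusted p = 0.0765).

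MAGEC1, the neighbour of MAGEC2 and the longest member of group C, took another course. It stood at 469.8, 518 and 386 in libraries labelled ZC3H7A/B-DD, against 17.0, 17.4 and 25.4 in Parental. The groups are far apart, and MAGEC1 was there the most changed tested member: log2 4.47 ± 0.20 (SE; limma adjusted p = 4.20e-06), a ratio of means of 23.0, from 1301 reads with the label against 66 in Parental. The exact counting interval of the read ratio was 18.0 to 30.1, and without Parental replicate 3 the log2 change was 4.65. In the Flag/HA set it was near the limit of detection, at 21.4, 14.0 and 10.4 with ZC3H7A, 0 in all 3 libraries with ZC3H7B and 0, 4.79 and 1.26 in the control.

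With ZC3H7A, MAGEC1 was called higher than the control (log2 2.73 ± 0.81, limma adjusted p = 0.00598), on 34 reads with ZC3H7A against 5 in the control, a ratio of 7.39 with a counting interval of 2.87 to 24.2. The size depends on single control libraries and on the pseudocount: it was 2.12 without control replicate 1, 3.38 without control replicate 2 and 1.55 with a pseudocount of 5, and the call held in each. With ZC3H7B no read was found, where 3 reads over the group would give a mean of 1.44; the log2 change of -1.24 was not called (limma adjusted p = 0.207). ZC3H7A against ZC3H7B was called (limma adjusted p = 0.000384), and MAGEC1 was at least 10.6-fold higher with ZC3H7A, taking 3 reads over the ZC3H7B group as the floor. No control or ZC3H7B library reached 10, so MAGEC1 entered the fit only through its ZC3H7A libraries. It had to differ there, and neither these p-values nor the calls that held are independent support. So with ZC3H7B, MAGEC2 was higher than the control while its neighbour had no read, at this depth.

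MAGEB6, a testis gene of group B, stood at 16.3, 25.2 and 35.6 with ZC3H7A/B-DD labels, against 8.09, 7.82 and 5.08 in Parental. The groups do not overlap, as for 40.8% of all genes tested in this comparison, and the log2 change was 1.70 ± 0.38 (limma adjusted p = 0.0126). No Parental library reached 10, so MAGEB6 entered this fit only through the labelled libraries. It had to differ there, and the p-values of this call are no independent support. Without ZC3H7A/B-DD replicate 3 the adjusted p was 0.0569, so that call rests on that library, and without Parental replicate 3 it was 0.0199; the read ratio was 3.47, from 71 reads with the label against 24 in Parental, with a counting interval of 2.16 to 5.76. In the Flag/HA libraries its values overlapped in all 3 groups: 17.4, 2.79 and 10.4 with ZC3H7A, 10.6, 2.68 and 5.87 with ZC3H7B and 1.27, 10.8 and 5.03 in the control, with no call (limma adjusted p of 0.357 and 0.748 against the control).

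**Figure D4:**
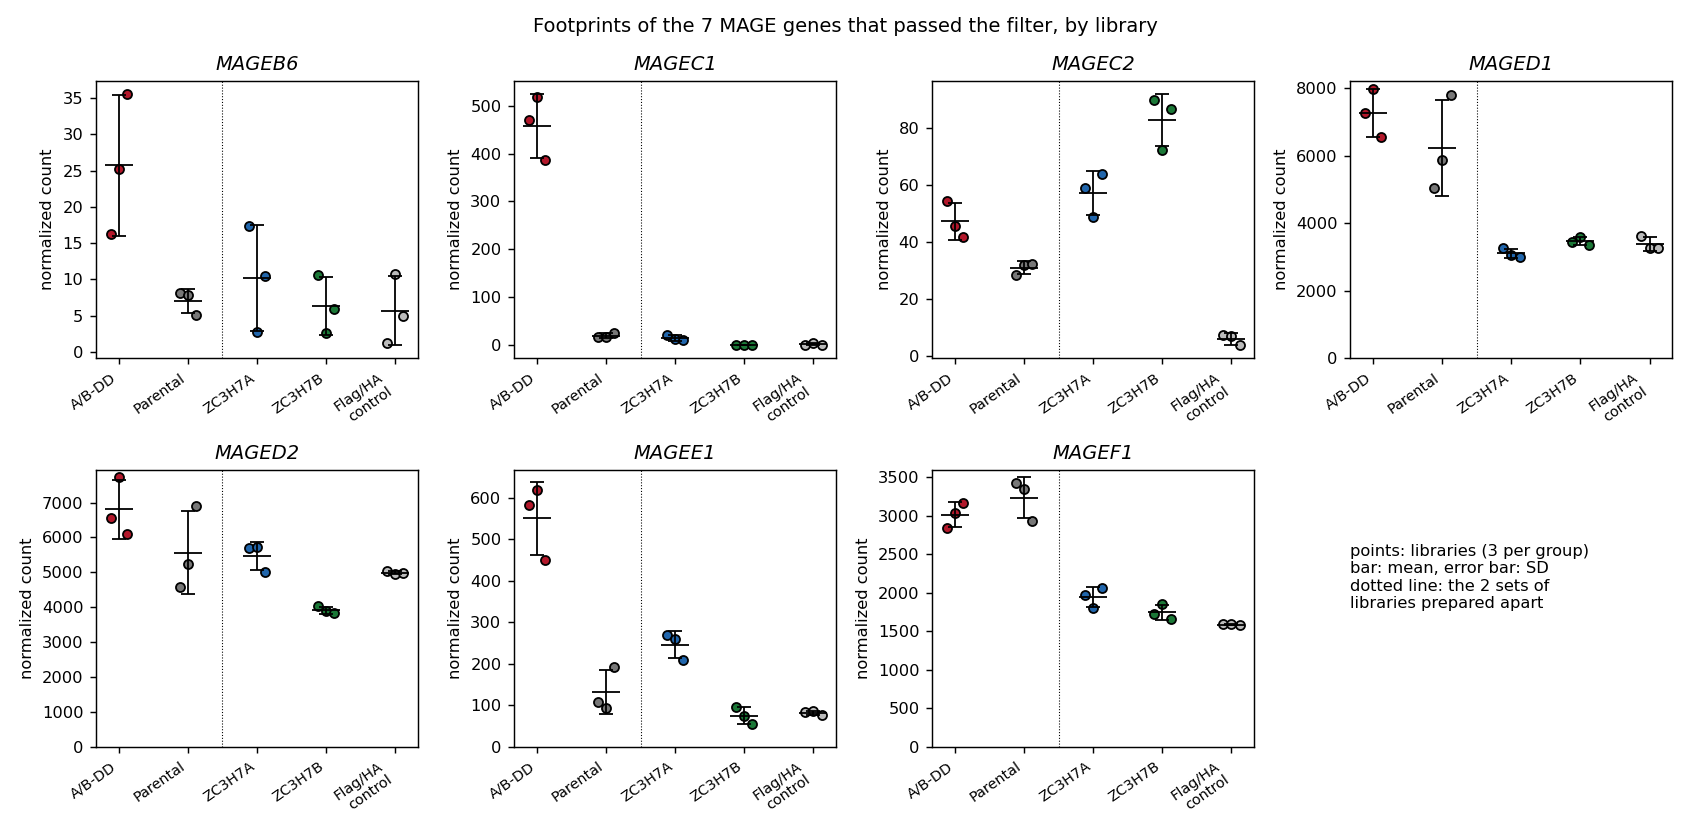
Each panel is 1 of the 7 tested members; points are libraries, horizontal bars the mean and error bars the SD of 3 libraries, on a linear axis of normalized counts, with the A/B-DD label and Parental left of the dotted line. MAGEC1 reaches 386 to 518 in the libraries labelled ZC3H7A/B-DD and stays at or under 25.4 elsewhere, MAGEC2 is lowest in the Flag/HA control, and MAGEE1 is high in the ZC3H7A/B-DD and ZC3H7A libraries.

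Among the widely expressed groups, MAGEE1, of group E and known to bind the dystrobrevin complex, moved most. It stood at 583, 617 and 451 in libraries labelled ZC3H7A/B-DD, against 108, 93.0 and 192 in Parental. The log2 change was 2.12 ± 0.25 (limma adjusted p = 0.000602). The lowest library of the first group lay well above the highest of the second, which was Parental replicate 3. Groups did not overlap for 40.8% of all genes tested in this comparison. Without Parental replicate 3 the log2 change of MAGEE1 was 2.43. With ZC3H7A it stood at 269, 258 and 209, with ZC3H7B at 95.8, 73.8 and 55.7 and in the control at 83.5, 84.9 and 75.4. It was 1.58 ± 0.18 higher on the log2 scale with ZC3H7A than in the control (limma adjusted p = 7.95e-08), a ratio of means of 3.02. With ZC3H7B its libraries overlapped with the control, at -0.15 and a 95% interval of -0.52 to 0.23 (limma adjusted p = 0.518). The difference between the overexpressing lines was itself called, at 1.72 ± 0.18 (limma adjusted p = 4.23e-08).

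MAGED2, which binds GNAS and supports salt uptake in the fetal kidney, was lower with ZC3H7B and close to the control with ZC3H7A. It stood at 5695, 5723 and 5019.9 with ZC3H7A, at 4025, 3886 and 3837 with ZC3H7B and at 5032, 4966 and 4969 in the control. The ZC3H7B libraries lie below all others, at a log2 change of -0.35 ± 0.05 (limma adjusted p = 2.00e-06), or 0.785 of the control mean. ZC3H7A against ZC3H7B differed by 0.48 (limma adjusted p = 2.74e-08). Groups did not overlap for 61.1% of all genes with ZC3H7B against the control and 43.7% with ZC3H7A against ZC3H7B. With ZC3H7A the change of 0.13 was called (limma adjusted p = 0.0243), but its libraries overlap with the control and the call was lost without ZC3H7A replicate 1 (0.120) or 2 (0.118), without control replicate 2 (0.0672) or 3 (0.0692), without the filter (0.0506) and in 1 fit over 15 libraries (0.383). Libraries with the ZC3H7A/B-DD label had 6566, 7746 and 6099.7, against 4579.6, 5229 and 6891 in Parental, which overlap (log2 0.30, limma adjusted p = 0.179).

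MAGED1, which binds the neurotrophin receptor NGFR and the ligase PJA1, moved by little. It stood at 3254, 3072 and 2989 with ZC3H7A, at 3436, 3591 and 3368 with ZC3H7B and at 3634, 3280.3 and 3266 in the control. With ZC3H7A it was called lower (log2 -0.13, limma adjusted p = 0.0368), a call lost without ZC3H7A replicate 2 (0.0817) or 3 (0.129), without control replicate 1 (0.253), without the filter (0.0804), with quantile scaling (0.441) and in 1 fit over 15 libraries (0.407). With ZC3H7B it did not pass the test (log2 0.03, adjusted p = 0.630), though quantile scaling gave 0.14 and an adjusted p of 0.0196. ZC3H7A against ZC3H7B gave -0.16 (limma adjusted p = 0.0169), lost without ZC3H7A replicate 3 (0.0691), without ZC3H7B replicate 2 (0.0856) and in 1 fit over 15 libraries (0.375). With ZC3H7A/B-DD labels it stood at 7262, 7971 and 6551, against 5048, 5865 and 7809 in Parental (log2 0.24, limma adjusted p = 0.292). Without Parental replicate 3, the highest of its group for both genes, MAGED1 (0.41, adjusted p = 0.0133) and MAGED2 (0.47, adjusted p = 0.0101) were called higher in the limma fit.

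MAGEF1 is the only tested member off the X chromosome, at chr3:184710367-184712002 on the minus strand (GRCh38), and it directs the ligase NSMCE1 to the iron-sulfur assembly factor MMS19. It stood at 1972, 1799.6 and 2059 with ZC3H7A, at 1718, 1855 and 1662 with ZC3H7B and at 1589.9, 1595 and 1576 in the control. Both lines lie above the control in all libraries, where 63.9% of all genes did not overlap with ZC3H7A and 61.1% with ZC3H7B. ZC3H7A gave 0.29 ± 0.06 on the log2 scale (limma adjusted p = 0.000135), called under every alternative run. ZC3H7B gave 0.14 (limma adjusted p = 0.0493), at the edge of the threshold: leaving out ZC3H7B replicate 1 (0.0683) or 2 (0.238) or any control library (0.0935, 0.0925 and 0.116) ended the call, as did TMM scaling (0.0986), edgeR (0.0923), DESeq2 (0.153), a pseudocount of 0.5 (0.05004), no filter (0.104) and 1 fit over 15 libraries (0.156). ZC3H7A against ZC3H7B was similarly marginal, at 0.15 with groups that overlap (limma adjusted p = 0.0366), and was lost without ZC3H7A replicate 1 (0.103) or 3 (0.161) and without ZC3H7B replicate 1 (0.0981) or 3 (0.127), without the filter (0.0760), with quantile scaling (0.0704) and in 1 fit over 15 libraries (0.148). Libraries with the ZC3H7A/B-DD label had 2848, 3032 and 3168, against 3425, 3352 and 2934 in Parental (log2 -0.10, 95% interval -0.31 to 0.11, limma adjusted p = 0.461).

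**Figure D5:**
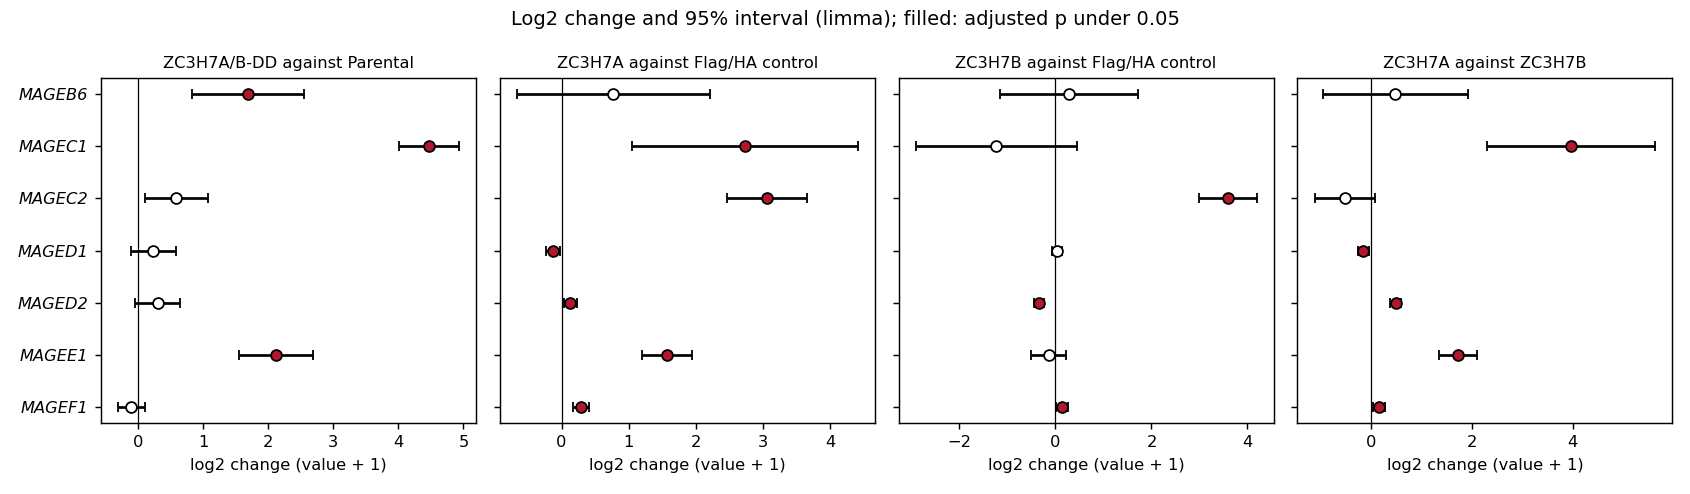
Points give the log2 change on the log2(value + 1) scale and bars its 95% interval from limma, for the 7 tested members in 4 comparisons; filled points passed an adjusted p under 0.05, and the x axis differs between panels. MAGEC1 (4.47) and MAGEE1 (2.12) lead with the ZC3H7A/B-DD label, MAGEC2 (3.06) leads with ZC3H7A, and with ZC3H7B MAGEC2 (3.59) stands far from the other members.

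Counted together, 6 of the 7 tested members were called with ZC3H7A (5 higher, 1 lower), where 57.5% of all 15599 genes were called, 29.2% higher and 28.2% lower. With ZC3H7B 3 were called (2 higher, 1 lower), against 54.3% of all genes (28.9% higher, 25.4% lower), and between ZC3H7A and ZC3H7B 5 were called (4 higher, 1 lower), against 36.6% of all genes (18.4% higher, 18.2% lower). With the ZC3H7A/B-DD label 3 were called, all higher, against 24.5% of 17092 genes, of which 11.0% were higher and 13.5% lower. A call by itself is thus common in these comparisons. Sizes were less so: a called rise of at least 2-fold was found in 5.45% of genes with ZC3H7A, 4.99% with ZC3H7B, 1.68% with ZC3H7A against ZC3H7B and 2.39% with the ZC3H7A/B-DD label. MAGEC1, MAGEC2 and MAGEE1 were among them with ZC3H7A, MAGEC2 with ZC3H7B, MAGEC1 and MAGEE1 with ZC3H7A against ZC3H7B, and MAGEB6, MAGEC1 and MAGEE1 with the label. Of these, MAGEC1 and MAGEC2 in the Flag/HA set and MAGEB6 with the label had passed the filter only through their high groups. Their place among the large rises is a description only.

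Over the 4 tested genes of groups D to L the median log2 change was 0.21 with ZC3H7A, -0.06 with ZC3H7B and 0.27 with the ZC3H7A/B-DD label, and over all genes it was 0.02, 0.04 and 0.02 in these comparisons. Within groups D to L, MAGEE1 exceeded a log2 change of 1 with ZC3H7A and with the label while MAGED1, MAGED2 and MAGEF1 stayed between -0.35 and 0.30 in all comparisons with a control. No median is given for the 3 tested genes of groups A to C, since some of them entered through their high groups. These were MAGEC1 and MAGEC2 in the Flag/HA set and MAGEB6 in the other set. No difference between the classes was tested.

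Levels between genes were compared per kilobase of coding sequence. In the Flag/HA control the order was MAGED2 (2744 ± 20.4), MAGEF1 (1723 ± 10.3), MAGED1 (1356 ± 83.4), MAGEE1 (28.3 ± 1.79), MAGEC2 (5.52 ± 1.87), MAGEB6 (4.66 ± 3.92) and MAGEC1 (0.588 ± 0.724), and MAGEC2 and MAGEB6 did not differ beyond their spread. MAGED2 had there more footprints per base than 85.8% of coding genes with reads, and MAGEC1 more than 5.81%. With ZC3H7B, MAGEC2 (74.1 ± 8.22) stood above MAGEE1 (26.2 ± 6.99), and with ZC3H7A below it (51.2 ± 6.83 and 85.5 ± 11.2). In Parental libraries MAGEF1 (3515 ± 288), MAGED2 (3062 ± 656) and MAGED1 (2494 ± 567) led, MAGED2 overlapping with both others, far above MAGEE1 (45.7 ± 18.6), MAGEC2 (27.7 ± 2.07), MAGEC1 (5.82 ± 1.39) and MAGEB6 (5.73 ± 1.36). In libraries labelled ZC3H7A/B-DD, MAGEC1 (134 ± 19.6) stood above MAGEC2 (42.3 ± 5.74) and below MAGEE1 (192 ± 30.6); it had more footprints per base than 44.4% of coding genes with reads, against 24.3% in Parental.

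MAGE genes that carry other symbols were followed as a list of 4, of which 3 are in the table and 2 were tested. NDNL2, now named NSMCE3 and a subunit of the SMC5/6 repair complex, fell in both overexpressing lines, to 1065 ± 40.8 with ZC3H7A and 1052 ± 38.1 with ZC3H7B, against 1299 ± 31.2 in the control (log2 -0.29 and -0.30, limma adjusted p of 0.000177 and 0.000102). TRO, which codes for trophinin, an adhesion protein with a MAGE domain, was called lower with ZC3H7B (log2 -0.16, limma adjusted p = 0.0203; 0.112 without ZC3H7B replicate 2, 0.0713 without control replicate 1 and 0.644 in 1 fit over 15 libraries). In libraries labelled ZC3H7A/B-DD TRO stood at 1490.3, 1534 and 1191, against 424, 501 and 1229 in Parental, which overlap; its call (log2 1.13, limma adjusted p = 0.0379) was lost when any library other than Parental replicate 3 was left out, with the replicate number as a block (0.0513), and with edgeR (0.0830) and DESeq2 (0.169).

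Proteins that MAGE proteins bind made up a list of 26 genes, 25 of them tested. With ZC3H7A 8 were higher and 5 lower (median log2 change 0.07), with ZC3H7B 8 and 6 (median -0.0049), and with the ZC3H7A/B-DD label 5 and 5 (median 0.07). The shares called were 52.0%, 56.0% and 40.0%, against 57.5%, 54.3% and 24.5% of all genes, so in the Flag/HA set the list stood near the share of all genes. TRIM28, the ligase partner of MAGEC2, rose in both overexpressing lines, to 33304 ± 1296 with ZC3H7A and 32772 ± 1533 with ZC3H7B, against 21526 ± 656 in the control (log2 0.63 and 0.61, limma adjusted p of 1.12e-10 and 2.21e-10). A link to the rise of MAGEC2 was not tested. NSMCE1, the partner of MAGEF1 and NDNL2, fell with ZC3H7A, to 2748 ± 185, against 3822 ± 42.1 in the control (log2 -0.48, limma adjusted p = 1.54e-07). PJA1, the partner of MAGED1, fell with ZC3H7B, to 1179.5 ± 113, against 1681 ± 42.0 in the control (log2 -0.52, limma adjusted p = 2.93e-07), and rose with the ZC3H7A/B-DD label, to 2461 ± 38.7, against 1219.9 ± 287 in Parental (log2 1.04, adjusted p = 0.00136). LNX1, a ligase that MAGEB18 binds, fell with the ZC3H7A/B-DD label, to 2.87 ± 1.18, against 54.7 ± 12.8 in Parental (log2 -3.87, limma adjusted p = 0.000183). With a pseudocount of 5 its log2 change was -2.91. LNX1 passed the filter there only through its Parental libraries, so its p-value is no independent support.

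Most other cancer-testis genes of the X chromosome stayed near 0: of 95 in the table, 53 had no read and 91 were below 10 in every library. PLAC1, a placental gene that many tumours express, was well above that. It stood at 379, 365 and 372 with ZC3H7A, at 392, 439.97 and 317 with ZC3H7B and at 452, 477 and 461 in the control. Both lines lie below the control in all libraries (log2 -0.32 and -0.29, limma adjusted p of 0.00930 and 0.0185). Groups did not overlap for 63.9% of all genes with ZC3H7A and 61.1% with ZC3H7B. The ZC3H7B call was lost without ZC3H7B replicate 3 (0.162), without control replicate 2 (0.0640) and in 1 fit over 15 libraries (0.0742). In libraries labelled ZC3H7A/B-DD PLAC1 stood at 870.4, 1055 and 1125, against 1285, 1465 and 1079.9 in Parental, which overlap (log2 -0.33, limma adjusted p = 0.111). IL13RA2, a decoy receptor for a cytokine and a tumour antigen, stood at 76.2, 56.7 and 69.2 in libraries labelled ZC3H7A/B-DD, against 6.48, 2.61 and 5.08 in Parental (log2 3.63, limma adjusted p = 0.000180; 2.91 with a pseudocount of 5). No Parental library reached 10, so IL13RA2 entered that fit only through the labelled libraries, and its p-value there is no independent support. In the Flag/HA set IL13RA2 stood at 14.7, 22.4 and 24.8 with ZC3H7A, at 0, 6.71 and 4.40 with ZC3H7B and at 8.86, 12.0 and 5.03 in the control. There no ZC3H7B library reached 10. ZC3H7A differed from ZC3H7B (log2 2.61, adjusted p = 0.00196; 1.71 without ZC3H7B replicate 1), while neither line passed the test against the control (limma adjusted p of 0.106 and 0.0640). SPANXN3, a sperm protein gene near MAGEC2, was lower with the ZC3H7A/B-DD label, at 8.56, 9.45 and 12.6, against 34.0, 26.9 and 21.3 in Parental (log2 -1.34, limma adjusted p = 0.0154; 0.0779 without Parental replicate 1, 0.0651 without Parental replicate 2 and 0.0637 in 1 fit over 15 libraries).

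Of the blood cell markers, CD3E was at most 4.19 and PTPRC at most 10.5 in libraries labelled ZC3H7A/B-DD and in Parental. Fibroblast markers summed to 394 to 497 with the label and to 575 to 759 in Parental. In the Flag/HA set PTPRC was at most 3.77, and fibroblast markers summed to 154 to 169 with ZC3H7A, 155 to 195 with ZC3H7B and 107 to 139 in the control. Germ cell markers, the list that shares a source tissue with groups A to C, summed to 7.78 to 17.8 with the label and to 6.48 to 9.56 in Parental, with PRM1 and TNP1 at 0. Their part in the MAGE results was not tested.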

How the data were processed

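Ribosome footprints of 15 libraries in 5 groups of 3 were analysed from 1 deposited table. Per the name of the deposited table its values are normalized counts; they were treated as a signal that the authors made by dividing reads by a size factor per library. Per the submitters' processing notes, the tools included STAR, Bowtie, cutadapt, DESeq2 and HTSeq, and hg19 and hg38 are both listed as builds. Versions, the read lengths retained and the handling of multiply placed reads are not given here. Every value was a whole multiple of 1 step per library (100% of values within 0.001 reads), so reads and depths were recovered. 10735 names had no read in any library.

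All genes were fitted on log2(value + 1) with limma 3.58.1 in R 4.3.3 (lmFit, eBayes with trend), where 3 or more libraries reached 10. Calls were made at 0.05 after Benjamini-Hochberg adjustment over all genes tested. One fit held the 9 Flag/HA libraries and another the remaining 6. edgeR 4.0.16 and DESeq2 1.42.0 on the recovered reads were alternatives. This step was first tested on simulated counts. The MAGE genes and the lists beside them were chosen with earlier results of these data known. Values per library are given for members called in at least 1 comparison and at a mean of 20 or more in a group, and for tested members of groups D to L; from each list, up to 2 called genes per direction and comparison with the smallest p could be named. Values of MAGEH1 and MAGEA10 are given outside this rule, chosen after their values were seen. Some genes of the lists, and the summed blood cell markers, are not reported here.

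Coding sequences, coordinates and shared 28-base windows come from GENCODE release 29, the longest coding sequence per gene, and promoters from RefSeq. Replicate numbers showed no sign of pairing, judged by correlations of deviations from the group means. In the Flag/HA set these were -0.06 to 0.09 over 9 same-numbered pairs and -0.10 to 0.08 over 18 other pairs. In the other set they were -0.13 to 0.03 over 3 same-numbered pairs and -0.03 to 0.17 over 6 other pairs. Such values cannot show that the libraries were prepared without pairing.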

Additional observations from a re-analysis of the deposited data

Results flagged for a closer look

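For 5 MAGE genes the change with ZC3H7A and the change with ZC3H7B, both against the same Flag/HA control, differed by a direct test of the difference (limma, adjusted p under 0.05 over 15599 genes). MAGEC1 had 3.97 more on the log2 scale with ZC3H7A, where all 3 ZC3H7B libraries were at 0 (adjusted p = 0.000384); it entered the fit only through its ZC3H7A libraries, so it had to differ there and the p is no independent support. MAGEE1 differed by 1.72 (adjusted p = 4.23e-08) and MAGED2 by 0.48 (adjusted p = 2.74e-08), both higher with ZC3H7A in 3 of 3 libraries. MAGED1 differed by -0.16 (adjusted p = 0.0169), lower with ZC3H7A in 3 of 3 libraries. MAGEF1 differed by 0.15 (adjusted p = 0.0366), with libraries that overlap. At this threshold 36.6% of all genes differed between the lines, and the libraries of the 2 lines did not overlap for 43.7%.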

How the results depend on the processing

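Alternatives gave 468 values for the 28 member results: 425 kept their direction and their side of the threshold, 34 lost a call, 4 gained one and 5 changed sign. Sign changes were of results that had not been called: MAGEB6 with ZC3H7B against the control was 0.29, and -0.047 with quantile scaling; leaving out 1 library gave -0.34 to 0.85. MAGEB6 between ZC3H7A and ZC3H7B ranged from -0.014 to 1.12, and MAGEE1 with ZC3H7B against the control from -0.34 to 0.050, when 1 library was left out. Called members between ZC3H7A and ZC3H7B numbered 5, but 3 in 1 fit over all 15 libraries and 3 to 5 with 1 library left out. Against the control, leaving out 1 library gave 4 to 5 called members with ZC3H7A (6 with all) and 2 to 3 with ZC3H7B (3 with all). In libraries labelled ZC3H7A/B-DD it gave 2 to 5 (3 with all) and 1959 to 5631 called genes, against 4182 with all. The 1959 came without Parental replicate 2, and 2555 and 2517 without ZC3H7A/B-DD replicate 3 and Parental replicate 1. No cause of these shifts was tested. With the replicate number as a block, 9169 genes were called with ZC3H7A, 8714 with ZC3H7B, 6026 between them and 2992 with the ZC3H7A/B-DD label, and 6, 3, 5 and 3 members, the same numbers as without the block. Another scaling moved the median change of all genes by at most 0.02 on the log2 scale. Depth limits the members under the filter and MAGEC1 in the Flag/HA set.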

Other observations

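Because the promoters of groups A to C are known to be silenced by DNA methylation, 24 genes that write, read or erase this mark were followed, 22 of them tested. With ZC3H7A 8 were higher and 5 lower (median log2 change 0.05), with ZC3H7B 8 and 5 (median 0.07), and with the ZC3H7A/B-DD label 6 and 2 (median 0.10). The shares called were 59.1%, 59.1% and 36.4%, against 57.5%, 54.3% and 24.5% of all genes, so in the Flag/HA set the list stood near the share of all genes. TET3, which oxidizes methylated cytosine, rose to 1146 ± 122 with ZC3H7A and 1176 ± 41.4 with ZC3H7B, against 636 ± 22.4 in the control (log2 0.84 and 0.89, limma adjusted p of 6.22e-10 and 2.92e-10). TDG, a glycosylase that acts after TET enzymes, fell to 2208 ± 59.2 with ZC3H7A and 2814 ± 180 with ZC3H7B, against 3848 ± 88.6 in the control (log2 -0.80 and -0.45, adjusted p of 4.33e-12 and 5.64e-08). MBD3, a member of the methyl-binding domain family, was 1162 ± 114 with ZC3H7B, 693 ± 79.3 with ZC3H7A and 397 ± 22.7 in the control (log2 1.55 with ZC3H7B against the control, limma adjusted p = 5.40e-13). HELLS, a remodeller needed for methylation, was 20997 ± 693 with ZC3H7A, 27382 ± 681 with ZC3H7B and 30854 ± 198 in the control (log2 -0.56 with ZC3H7A against the control, limma adjusted p = 1.92e-10).

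The RefSeq coding genes in the table next to MAGEB6, MAGEC1, MAGEC2 and MAGEE1, up to 3 on each side, were read after the values of these members were seen. Of 13 that are no members, 4 were tested in the Flag/HA set, where 4 were lower with ZC3H7A, 3 were lower with ZC3H7B and none was higher in either (limma, adjusted p under 0.05), against 28.2% and 25.4% of all genes called lower; with 4 genes this is a description only. In the other set 7 were tested, of which 2 were higher and 2 lower with the ZC3H7A/B-DD label, against 11.0% and 13.5% of all genes. PBDC1, next to MAGEE1, averaged 2229 with ZC3H7A and 2952 in the control (log2 -0.40), while MAGEE1 averaged 245 with ZC3H7A and 81.3 in the control. The SPANX genes and SLITRK4 around MAGEC1 and MAGEC2 stayed under 10 in mean with ZC3H7A, ZC3H7B and the control.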
